A study of Mus musculus with 7 samples.

Results

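The 10 genes described here are markers by which cardiac fibroblasts are commonly recognised: the receptor genes Pdgfra and Ddr2, the transcription factor gene Tcf21, the matrix genes Dcn, Lum, Dpt and Mfap5, and the genes of the secreted proteins Pi16, Clec3b and Htra3. They were taken by symbol, through the RefSeq transcript that each array probe is listed for, out of 21154 named genes on the array. All 10 were found, on 11 probes, and each was well above background on all 7 arrays. RNA came from the heart apex of male C57BL/6 mice and was hybridised to 1-colour Agilent microarrays.

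The 3 knockout (KO) animals were heterozygous for α-MHC mercremer, a tamoxifen-activated Cre recombinase driven by a promoter of cardiomyocytes, and homozygous for a floxed p38α gene (Mapk14) whose exons 2 and 3 lie between loxP sites. The 4 control animals carried the same floxed alleles without the Cre transgene. All animals were given hydroxytamoxifen, the drug that activates this Cre, at 500 µg a day from the age of 6 weeks for 10 days. At 3 months all had osmotic minipumps that delivered the vasoconstrictor hormone angiotensin II for 48 hours (1.5 mg/kg a day). The comparison asks what losing p38α in the myocytes alters in the transcripts of a heart exposed to angiotensin II. Every heart received angiotensin II, so a response to the peptide itself is not measured here, and the deletion and the Cre transgene cannot be told apart. The promoter directs Cre to cardiomyocytes, while the genes below are best known from cells that it does not target. Of the 4 KO hearts in the study's design, 3 are analysed here.

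Fibroblasts of the heart descend largely from the epicardium, and Tcf21, a basic helix-loop-helix factor, is needed for that step in mice. In the adult heart they lie between the myocytes and around the vessels, carry the receptor PDGFRα on their surface, and lay down and maintain the collagen network. Decorin and lumican are small leucine-rich proteoglycans that bind collagen fibrils, and dermatopontin binds decorin and takes part in fibril assembly. Pi16, Clec3b and Mfap5 are prominent in the fibroblasts around larger vessels. On injury fibroblasts become activated and increase matrix and contractile genes.

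Levels are given as the log2 of the background-subtracted signal minus the 75th percentile of the array, and differences as KO minus control on that log2 scale with the standard error (SE) of the fit. A gene is said to have risen or fallen if its limma p, adjusted over all 22348 features tested, was under 0.05. Of the 10 genes 6 passed, against 25.4% of all features: 5 fell (Clec3b, Pi16, Htra3, Dpt and Dcn) and 1 rose (Pdgfra). The other 4 did not pass (Lum, Tcf21, Ddr2 and Mfap5). Over all features tested 15.2% fell and 10.2% rose, with a median difference of -0.06. The median of the 10 genes was -0.76. In a bulk tissue sample, fewer cells of a type and less RNA per cell cannot be told apart.

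RefSeq promoters, from 250 bases before to 50 after the annotated start (GRCm38.p6), were held for 6 of the 10 genes. Those of 3 genes that fell and of the 1 that rose are shown, so that the members moving in opposite directions can be set side by side, each 5′ to 3′ on its own strand. Capitals mark matches to the E-box CANNTG, the kind of site bound by basic helix-loop-helix factors such as TCF21, or to the TATA box TATAAA, searched on both strands, where neighbouring matches may touch or overlap.
Htra3, chr5:35679731-35680030, minus strand: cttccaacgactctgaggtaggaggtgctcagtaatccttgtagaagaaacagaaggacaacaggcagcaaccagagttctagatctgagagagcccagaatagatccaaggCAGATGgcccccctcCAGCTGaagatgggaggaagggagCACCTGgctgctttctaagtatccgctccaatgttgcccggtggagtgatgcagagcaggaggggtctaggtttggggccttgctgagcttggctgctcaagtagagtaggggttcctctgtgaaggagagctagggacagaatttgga
Pi16, chr17:29318632-29318931, plus strand: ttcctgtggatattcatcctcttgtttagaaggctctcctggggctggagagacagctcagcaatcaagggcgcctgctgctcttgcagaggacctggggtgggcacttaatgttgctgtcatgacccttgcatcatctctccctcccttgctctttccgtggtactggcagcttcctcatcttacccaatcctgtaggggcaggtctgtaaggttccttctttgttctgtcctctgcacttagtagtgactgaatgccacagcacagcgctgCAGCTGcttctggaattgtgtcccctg
Dpt, chr1:164796413-164796712, plus strand: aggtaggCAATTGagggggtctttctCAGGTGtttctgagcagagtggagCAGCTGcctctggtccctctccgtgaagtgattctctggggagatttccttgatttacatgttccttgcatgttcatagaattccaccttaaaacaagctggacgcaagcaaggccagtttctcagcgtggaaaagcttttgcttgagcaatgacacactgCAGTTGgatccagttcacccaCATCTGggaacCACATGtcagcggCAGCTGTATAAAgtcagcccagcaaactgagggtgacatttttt
Pdgfra, chr5:75152001-75152300, plus strand: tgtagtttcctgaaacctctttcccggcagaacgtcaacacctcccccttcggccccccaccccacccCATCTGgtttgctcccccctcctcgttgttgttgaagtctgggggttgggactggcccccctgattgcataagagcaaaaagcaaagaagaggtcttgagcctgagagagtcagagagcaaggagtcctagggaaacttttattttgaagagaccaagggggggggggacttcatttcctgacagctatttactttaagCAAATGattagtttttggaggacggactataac
The E-box was matched 3 times in the Htra3 window, once in that of Pi16, 7 times in that of Dpt and in 2 places in that of Pdgfra. Of the 6 promoters 5 held an E-box, as did 72.3% of 32851 RefSeq promoters of the same length. The TATA box was matched in Dpt and Ddr2, and in 13.6% of all promoters. The AP-1 motif TGANTCA was in 0 of the 6, against 7.81% of all. These matches describe the letters of the windows only.

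Clec3b, which encodes the plasminogen-binding protein tetranectin, had the largest difference of the 10 genes. Its level was -1.92, -3.01 and -0.16 in KO hearts 1 to 3, against 0.68, -0.23, 1.18 and 1.30 in control hearts 1 to 4. KO 1 and KO 2 lay below every control heart, while KO 3 lay just above control 2, so the groups overlapped. The difference was -2.43 ± 0.65 (SE), 5.40-fold lower in KO (adjusted p = 0.0323), with a 95% interval from -3.94 to -0.93. Leaving out KO replicate 2 gave -1.78 and leaving out KO replicate 3 gave -3.20. Normexp background correction subtracts the local background, fits a model to the remainder and adds an offset of 50 to each signal. With it the difference was -1.82.

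Pi16, a secreted protein of the CAP superfamily that restrains growth of cardiomyocytes in rodent models, had levels of 4.26, 3.63 and 5.10 in KO hearts, against 5.65, 5.01, 5.73 and 6.03 in control hearts. KO 3 again lay just above control 2, the lowest control heart. The difference was -1.27 ± 0.36 (SE), 2.42-fold lower in KO (adjusted p = 0.0388). Htra3, a secreted serine protease of the HtrA family, had levels of -1.29, -0.80 and -0.36 in KO hearts, against 0.18, -0.24, 0.88 and 0.82 in control hearts. Its groups did not overlap, with KO 3 and control 2 the nearest pair. It was 2.35-fold lower in KO, at -1.23 ± 0.33 (SE, adjusted p = 0.0319).

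**Figure D1:**
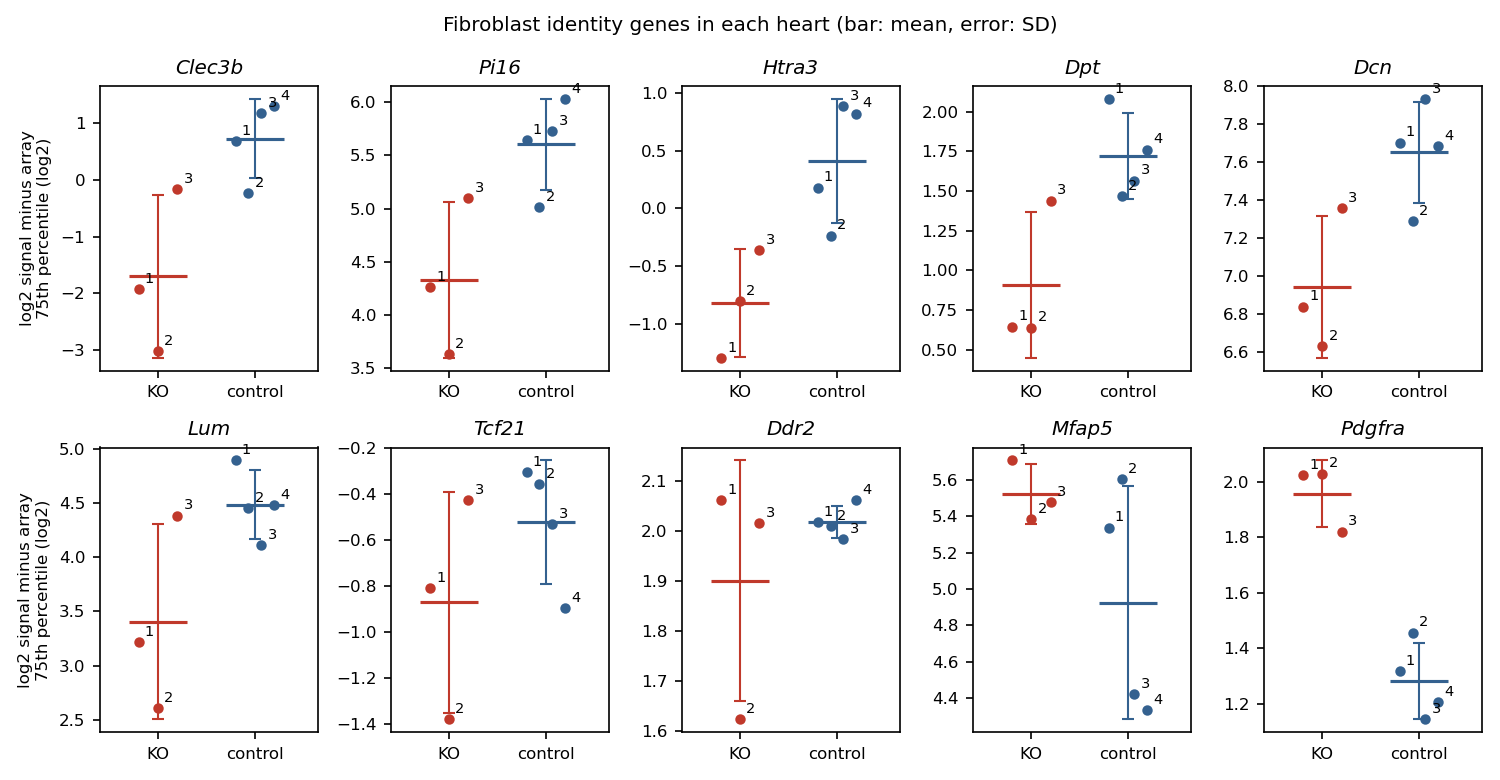
Log2 level of each of the 10 genes (signal minus the array's 75th percentile, y axis, scaled per gene) in 3 KO and 4 control hearts. Points are hearts with their replicate number, horizontal bars are means and error bars SD. KO 2 is the lowest of the 7 hearts for 7 genes, and all KO hearts lie above all control hearts for Pdgfra.

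Among the matrix genes, Dpt and Dcn fell and Lum did not pass the threshold. Dpt, which encodes dermatopontin, read 0.64, 0.64 and 1.44 in KO hearts, against 2.08, 1.47, 1.57 and 1.76 in control hearts. All KO hearts lay below all control hearts, though KO 3 and control 2 were 0.03 apart. The difference was -0.81 ± 0.24 (SE), 1.75-fold lower in KO (adjusted p = 0.0449). Dcn, the decorin gene, read 6.84, 6.63 and 7.36 in KO hearts, against 7.70, 7.29, 7.93 and 7.68 in control hearts. KO 3 lay above control 2, and the other KO hearts lay below all control hearts. Dcn was 1.63-fold lower in KO, at -0.71 ± 0.22 (SE, adjusted p = 0.0491, close to the threshold).

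Lum, the lumican gene, is the direct neighbour of Dcn among protein-coding genes on chromosome 10. It read 3.22, 2.61 and 4.39 in KO hearts, against 4.90, 4.46, 4.11 and 4.48 in control hearts. KO 3 lay within the control hearts and the other KO hearts below them. The difference of -1.08 ± 0.39 (SE, adjusted p = 0.0762) was larger than that of Dcn, but the KO hearts spread by 0.90 (SD, n = 3) against 0.32 in controls (SD, n = 4). Of 19 alternative settings Lum passed in 2, without KO replicate 3, at -1.57 (adjusted p = 0.0101), and with array weights, at -1.38 (adjusted p = 0.00324). The fit with array weights called 53.6% of all features.

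Mfap5, which encodes a glycoprotein of fibrillin microfibrils, did not pass and lay on the other side of 0. Its level was 5.71, 5.39 and 5.48 in KO hearts, against 5.34, 5.60, 4.42 and 4.33 in control hearts. The KO hearts were close together, whereas controls 1 and 2 stood about as high as the KO hearts and controls 3 and 4 well below. Controls 1 and 2 and KO 1 lay in row 1 of the slide and the other hearts in row 2. The difference was 0.60 ± 0.33 (SE, adjusted p = 0.196), or 0.73 (adjusted p = 0.0275) with the slide row as a block. Of 19 alternative settings Mfap5 passed only in that 1, in a fit that called 37.6% of all features. Within row 1 the difference was 0.24 and within row 2 1.05.

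The receptor gene Pdgfra was the only one of the 10 that rose. Its level was 2.02, 2.03 and 1.82 in KO hearts, against 1.32, 1.46, 1.14 and 1.21 in control hearts. All KO hearts lay above all control hearts, and the gap between the nearest pair, KO 3 and control 2, exceeded the range within either group. The difference was 0.68 ± 0.14 (SE), 1.60-fold higher in KO (adjusted p = 0.0164), with a 95% interval from 0.36 to 0.99.

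Pdgfra and Dpt were each printed as 10 spots per array, which gives the spread between spots of 1 array. Variation between labelling reactions and between arrays is not part of it. The SD over the spots of a heart was 0.08 to 0.13 for Pdgfra and 0.05 to 0.09 for Dpt. One Dpt spot of control 1 was marked as an outlier and left out. For Pdgfra the lowest single spot of any KO heart was 1.55, in KO 3, and the highest of any control heart was 1.59, in control 2. The spots of KO 3 and control 2 overlapped widely for Dpt, from 1.34 to 1.52 and from 1.34 to 1.56. The groups were therefore separated in Dpt by KO 1 and KO 2, whose highest spot was 0.79, against a lowest control spot of 1.34.

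**Figure D2:**
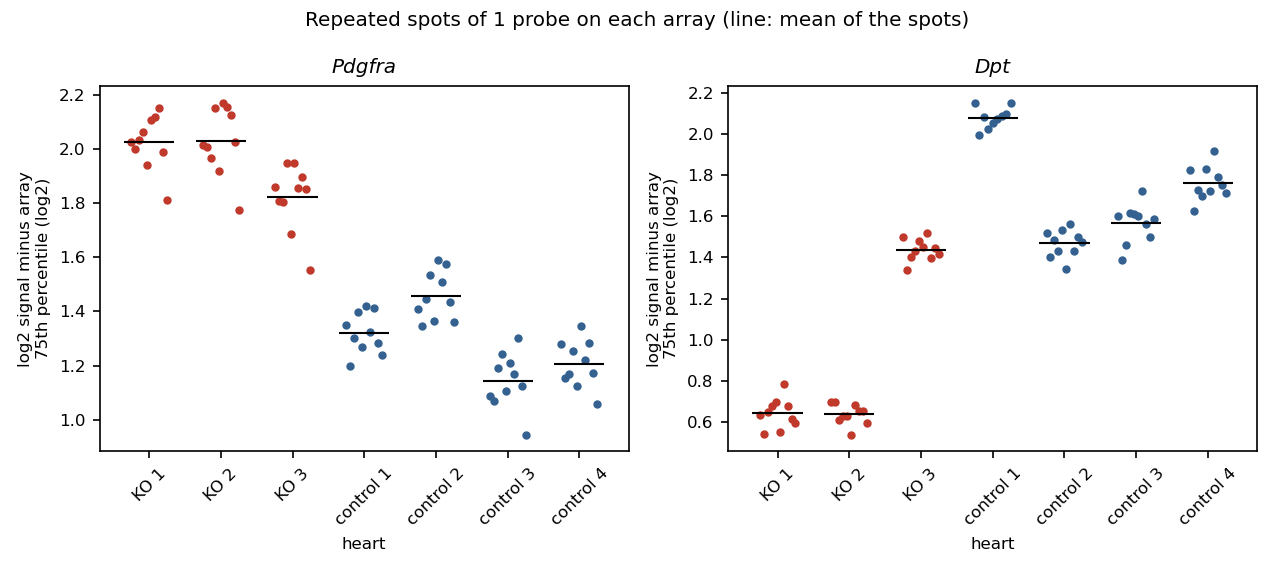
Log2 level of every spot of the Pdgfra and Dpt probes (signal minus the array's 75th percentile, y axis) in each heart (x axis, KO hearts in red, control hearts in blue). Black lines are the means over the spots. Spots of 1 heart lie close together, and for Dpt KO 3 stands with the control hearts while KO 1 and KO 2 stand below.

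Ddr2, a receptor tyrosine kinase for collagen, and Tcf21 did not pass. Ddr2 read 2.06, 1.62 and 2.02 in KO hearts, against 2.02, 2.01, 1.98 and 2.06 in control hearts. KO 2 stood below the rest, and the other 6 hearts were within 0.08 of each other. The difference was -0.12 ± 0.14 (SE, adjusted p = 0.556), with a 95% interval from -0.45 to 0.22. A dimmer Ddr2 probe differed by 0.18 in the other direction, at -1.10, -1.38 and -1.26 in KO hearts, against -1.55, -1.23, -1.46 and -1.47 in control hearts. Both probes together averaged 0.03 (adjusted p = 0.884).

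Tcf21 read -0.81, -1.38 and -0.43 in KO hearts, against -0.30, -0.36, -0.53 and -0.90 in control hearts. The groups overlapped, and KO 2 was the lowest. Its difference was -0.35 ± 0.25 (SE, adjusted p = 0.312), with a 95% interval from -0.92 to 0.22.

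**Figure D3:**
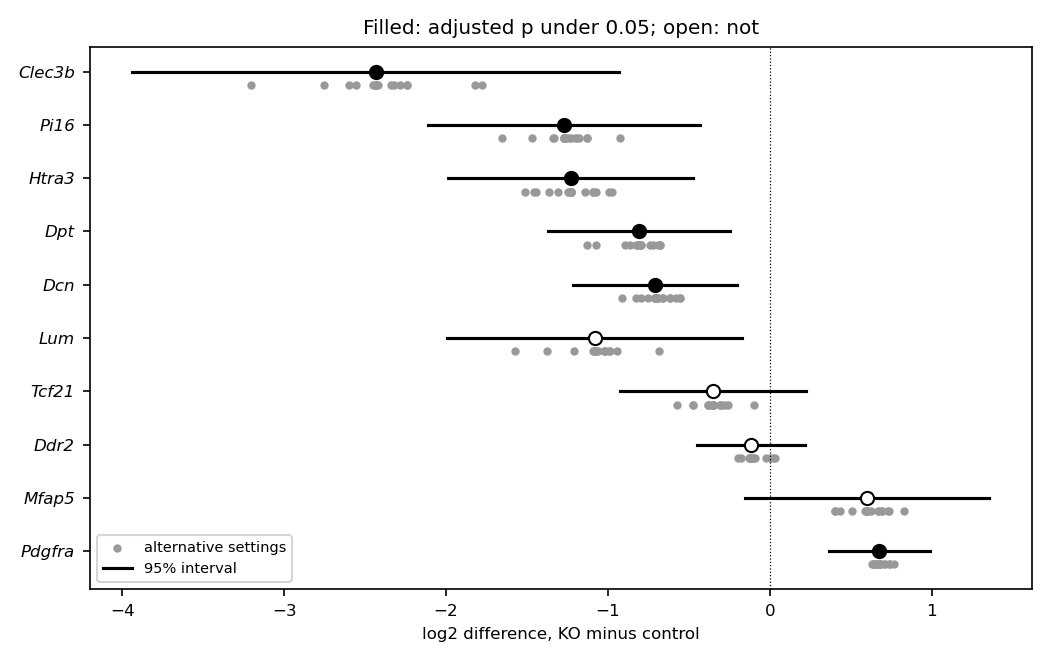
Log2 difference of each gene, KO minus control (x axis), with its 95% interval as a black line. Filled circles passed an adjusted p of 0.05 and open circles did not, and grey points are the same difference under 19 other settings, the hearts left out in turn included. Every grey point of the 6 genes that passed lies on the same side of 0 as its circle.

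The genes with a difference below 0 ranked the KO hearts in much the same way, but not the control hearts. Among the 8 genes with a difference below 0, KO 2 was the lowest KO heart for 7 (all but Htra3) and KO 3 the highest KO heart for 7 (all but Ddr2). Control 2 was the lowest control heart for Clec3b, Pi16, Htra3, Dpt and Dcn, control 3 for Lum and Ddr2, and control 4 for Tcf21. How often other features rank the hearts in this way was not counted. Each gene was also tested alone by an exact permutation test (two-sided, all 35 splits of the hearts, smallest possible p 0.0286). In it Pdgfra and Dpt reached 0.0286, Clec3b, Htra3 and Lum 0.0571, and Pi16 and Dcn 0.0857. The groups did not overlap for 2 genes lower in KO, Htra3 and Dpt, and for 1 higher, Pdgfra. Over all features the groups did not overlap in 39% of cases, 21.6% lower and 17.4% higher in KO.

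**Figure D4:**
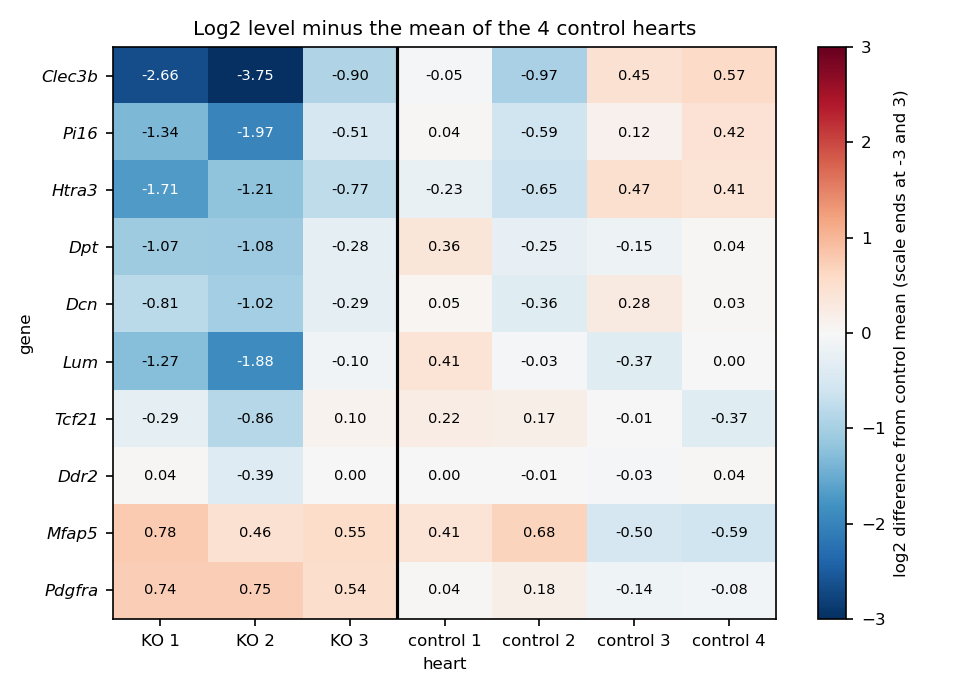
Level of each gene (rows) in each heart (columns) minus the mean of the 4 control hearts, on the log2 scale, blue for lower and red for higher. KO 1 and KO 2 carry the darkest blue cells, from -3.75 to -0.81 in the first 6 rows (Clec3b to Lum), where KO 3 ranges from -0.90 to -0.10.

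Ratios taken within a heart do not move with the scaling of its array. Pdgfra rose and separated the groups by itself. Its mean ratios over genes with a difference below 0, whether or not they passed, were therefore bound to be higher in KO. They describe the same differences again and are not further support for them. Relative to the control mean, the log2 ratio of Pdgfra over Clec3b was 3.40, 4.49 and 1.44 in KO hearts, against 0.09, 1.14, -0.58 and -0.64 in control hearts. The ratio of Pdgfra over Dcn was 1.55, 1.77 and 0.83 in KO hearts, against -0.01, 0.54, -0.42 and -0.11 in control hearts. All KO hearts lay above all control hearts in both ratios. The same held for the ratios over Pi16, Htra3, Lum, Dpt, Tcf21 and Ddr2, where the mean difference ran from 0.79 to 1.95. Over Mfap5 the groups overlapped, with a mean difference of 0.08. How often ratios of Pdgfra over other features separate the groups was not counted.

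Each of these calls rested on few hearts. The fall of Clec3b, Pi16, Htra3, Dpt and Dcn no longer passed when KO replicate 1 (adjusted p from 0.118 to 0.168), KO replicate 2 (0.0791 to 0.141), control replicate 1 (0.0555 to 0.0956), control replicate 3 (0.0729 to 0.109) or control replicate 4 (0.0792 to 0.106) was left out, and still passed without KO replicate 3 or control replicate 2. The differences themselves moved less: without KO replicate 1 they were -2.32 for Clec3b, -1.24 for Pi16, -0.99 for Htra3, -0.68 for Dpt and -0.66 for Dcn. The rise of Pdgfra did not pass without KO replicate 1 (0.64, adjusted p = 0.083) or KO replicate 2 (0.64, 0.0557). Calls over all features, 5667 with every heart, dropped to 69 without KO replicate 1, 1143 without KO replicate 2, and 3347, 2720 and 2230 without control replicates 1, 3 and 4.

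Of 26 further fibroblast genes 5 fell (19.2%, near the 15.2% of all features that fell) and 0 rose, with a median of -0.15. Scara5, a ferritin receptor of fibroblasts, fell by 2.63 ± 0.70 (SE, adjusted p = 0.0323), or by 1.89 without KO replicate 1, by 3.45 without KO replicate 3 and by 1.61 with normexp. In 1 KO heart of the 3 Scara5 gave no signal well above background, so it passed the filter through the control hearts alone. Of the 25 further fibroblast genes well above background on every array 4 fell. The matrix gene Fbln1, which encodes fibulin-1, fell by 1.45 ± 0.39 (adjusted p = 0.0338). Its levels were -0.25, -0.91 and 0.62 in KO hearts, against 1.02, 0.68, 1.70 and 1.66 in control hearts. Islr, a leucine-rich repeat protein of stromal cells, was at -1.90 (adjusted p = 0.0359), and at -2.56 without KO replicate 3. With KO replicate 1, KO replicate 2, control replicate 1, 3 or 4 left out, 0 of the 26 passed as lower (0.309% to 15% of all features called).

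Of the small leucine-rich proteoglycans besides Dcn and Lum, 5 were well above background on every array, and 2 of these fell, Ecm2 and Ogn, and 0 rose. Of all features 15.2% fell and 10.2% rose. Ogn is also 1 of the 5 that fell among the further fibroblast genes. Over the 8 tested, which include 3 measured mainly through the control hearts (Omd, Chad and Fmod), the number lower was 3 (37.5%). Leaving out KO replicate 1 gave 0 lower (0.309% of all features called in either direction), KO replicate 2 gave 1 (5.11%) and KO replicate 3 gave 5 (25.8%). Ecm2, Aspn, Omd and Ogn follow each other directly among the protein-coding genes of chromosome 13. Ogn (osteoglycin) read 2.47, 2.36 and 3.90 in KO hearts, against 4.04, 4.01, 4.002 and 4.21 in control hearts. Ogn fell by 1.16 ± 0.35 (SE, adjusted p = 0.0459), and the groups did not overlap. Ecm2 fell by 2.34 ± 0.48 (adjusted p = 0.0175), or by 3.00 without KO replicate 3 and by 1.63 with normexp, and Aspn (asporin) was at -0.84 (adjusted p = 0.125). Omd (osteomodulin) was measured above background in all 4 control hearts but not well above background in any KO heart. It passed the filter through the control hearts alone, so the filter favoured a difference, and its adjusted p of 0.0143 rests on KO signals near background. KO hearts were at least 2.70-fold lower by a bound. It was set against each KO array's lowest signal well above background, or Omd's signal there if higher. It holds only for the background-subtracted signal without an added offset. Omd's measured means were -5.46 in KO and -2.82 in control hearts, and with normexp the difference was -0.67, smaller than that bound.

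Of 20 genes of fibroblasts activated by injury 2 rose (10%, as did 10.2% of all features), 0 fell and 18 did not pass. The median of 1.29 includes Tnc and Cthrc1, which passed the filter through the KO hearts alone. Ccn2, a matricellular protein induced by TGFβ, read 8.14, 8.17 and 7.82 in KO hearts, against 6.10, 7.19, 6.02 and 4.85 in control hearts. Ccn2 rose by 2.00 ± 0.47 (SE, adjusted p = 0.0226) and the transcription factor gene Runx1 by 2.24 ± 0.56 (adjusted p = 0.0269), or by 1.64 with normexp. Timp1, an inhibitor of metalloproteinases, was at 2.98 and just outside the threshold (adjusted p = 0.0501). The mean over the list, with each gene centred on its mean over the hearts, was 0.93, 0.26 and 1.04 in KO hearts, against 0.23, 0.78, -1.35 and -1.89 in control hearts. Of the controls in row 1 of the slide, control 2 thus stood among the KO hearts and control 1 just below the lowest of them. Controls 3 and 4, in row 2, stood far below. With the slide row as a block 11 of the 20 rose, in a fit that called 37.6% of all features, and 11 rose without control replicate 2 (31.2% of all features called). With normexp 6 rose (27.3% called). Without KO replicate 1, KO replicate 2 or control replicate 3, 0 rose (0.309% to 12.2% of all features called).

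Of 18 genes described in fibroblasts around vessels, the compartment that Pi16 marks, 2 rose (11.1%) and 1 fell (5.56%), with a median of -0.03. Together these are fewer than the 25.4% of all features that passed. The count lower was 0 without KO replicate 1 or 2 or control replicate 1, 3 or 4 (0.309% to 15% of all features called). Without control replicate 2 (31.2% called) it was 3, beside 5 higher. Procr, the endothelial protein C receptor, rose by 1.08 ± 0.20 (SE, adjusted p = 0.0148). The hyaluronan synthase gene Has1 rose by 2.40 ± 0.64 (adjusted p = 0.0325), or by 1.78 without control replicate 4 and by 1.40 with normexp. Cd55, a complement regulator, fell by 0.81 ± 0.23 (adjusted p = 0.0381).

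Of 6 genes of PDGF ligands and receptors besides Pdgfra, 1 fell (16.7%, near the 15.2% of all features) and 0 rose, with a median of 0.18. The count lower was 0 without KO replicate 1 or 2 or control replicate 1, 3 or 4 (0.309% to 15% of all features called). It was 2 without KO replicate 3 (25.8% called). Pdgfd, a ligand of the β receptor, fell by 0.70 ± 0.18 (SE, adjusted p = 0.0295). Pdgfa, a ligand of PDGFRα, read 4.53, 4.53 and 4.30 in KO hearts, against 4.16, 4.04, 4.08 and 3.93 in control hearts. The difference of 0.40 did not pass (adjusted p = 0.0531), although the groups did not overlap.

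Of 17 family relatives of the 10 genes 3 fell (17.6%, near the 15.2% of all features) and 0 rose, with a median of 0.09. Without KO replicate 1, KO replicate 2, control replicate 3 or control replicate 4, 0 fell (0.309% to 12.2% of all features called). Without control replicate 1 (15% called) it was 1. Htra4, a protease of the Htra3 family, fell by 1.90 ± 0.44 (SE, adjusted p = 0.0225), or by 1.05 with normexp. Tcf15 and Msc, like Tcf21 basic helix-loop-helix factor genes, fell by 0.93 and 1.09, and Msc by 0.45 with normexp. Msc and Crispld1 passed the filter through the control hearts alone and Pi15 through the KO hearts alone, so the filter favoured their differences. Of the 14 relatives well above background on every array 2 fell and 0 rose.

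**Figure D5:**
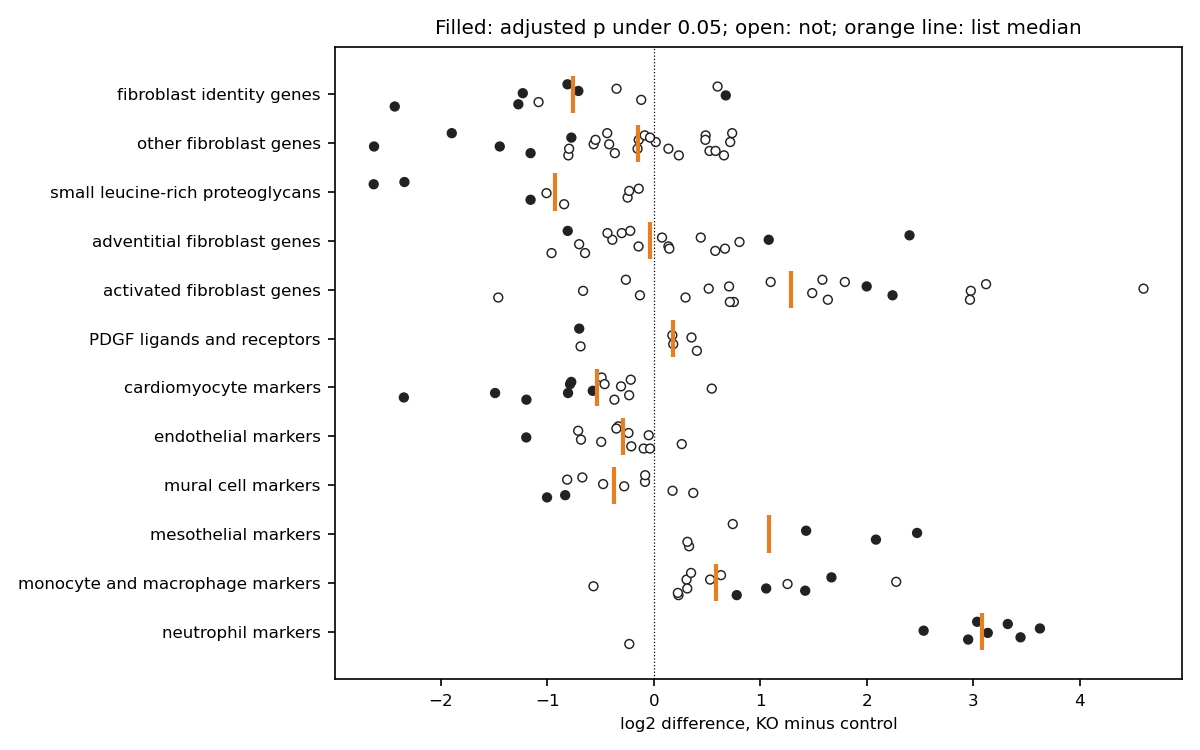
Log2 difference, KO minus control (x axis), of every tested gene of 12 lists (rows). Each point is a gene, filled if it passed an adjusted p of 0.05, and the orange line is the list's median. The medians are -0.76 for the fibroblast identity genes, -0.15 for the other fibroblast genes and 1.29 for the activated fibroblast genes, and 5 of the 8 neutrophil genes were measured mainly in KO hearts.

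Markers of other cell types of the heart are given beside these results, and their part in them was not tested. Of 14 cardiomyocyte markers 7 fell (50%) and 0 rose (median -0.53; Tnni3, cardiac troponin I, at -1.20). Of 12 endothelial markers 1 fell (8.33%; Kdr, -1.20) and of 10 mural cell markers 2 fell (20%; Abcc9 at -1.003 and Rgs5 at -0.83), against 15.2% of all features. Of 14 monocyte and macrophage markers 4 rose (28.6%, against 10.2% of all features; median 0.58).

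Of the neutrophil markers 3 were well above background on every array, and 2 of these rose, as did 10.2% of all features. S100a8, a calcium-binding protein abundant in neutrophils, read 2.25, 2.78 and -0.48 in KO hearts, against -1.82, -1.23, -2.07 and -2.12 in control hearts. KO 3 and control 2 were the nearest pair there as well. S100a8 was at 3.33 (adjusted p = 0.0187), S100a9 at 3.14 (0.0195) and Csf3r, the receptor of granulocyte colony-stimulating factor, at -0.23 (0.434). Another 5, Cxcr2, Mmp8, Mmp9, Fpr1 and Fpr2, passed the filter only through the KO hearts, so the filter favoured their differences. The median over these 8 was 3.09, or 2.63 with bounds for the 3 measured in no control heart, and 1.36 with normexp. Of 6 tested mesothelial markers 3 rose (50%, against 10.2% of all features), Krt18, Krt19 and Msln, while Upk3b, Upk1b, Lrrn4 and Bnc1 were not tested for want of signal. Their median of 1.09 over the 6 includes Krt8, which passed the filter through the KO hearts alone. Of the 4 mesothelial markers well above background on every array 2 rose. Of 4 lymphocyte markers, 7 Schwann cell markers and 1 adipocyte marker tested with limma 0 passed, and 1, 1 and 0 had an unadjusted p under 0.05. Without KO replicate 1 (0.309% of all features called), 0 cardiomyocyte, 0 macrophage and 0 mesothelial markers passed and 2 neutrophil markers did. Without KO replicate 2 (5.11% called) the numbers were 4, 1, 0 and 3. The mean over the cardiomyocyte markers ran from -0.55 to -0.28 in KO hearts and from 0.02 to 0.48 in control hearts.

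As to the labels, the brighter Mapk14 probe read 3.71 to 3.77 in KO hearts and 3.41 to 3.68 in control hearts (difference 0.22, adjusted p = 0.207). Its place relative to the deleted exons is not given in the sources used here, so it checks nothing about the deletion. A probe of Esr1, whose ligand-binding part mercremer contains, was well above background in every KO heart (-0.81, 0.08 and 4.51) and in none of the control hearts. The other 2 Esr1 probes were well above background on no array. The signal was highest in KO 3, the KO heart nearest to the control hearts in the 5 genes that fell, and any relation between them was not tested. The arrays shared 1 slide, with 46.0% to 49.7% of their probes well above background.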

How the data were processed

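RNA of 3 KO and 4 control hearts, 100 ng per labelling reaction per the labels' protocols, was measured on 1-colour arrays of 62976 spots. Per the file headers, the authors' scans were read by Feature Extraction (Agilent, 11.0.1.1), whose background-subtracted processed signal is the intensity used here. The array design carries the mm9 build, per the file headers; sequences shown are of GRCm38.p6. The deposited value table holds log2 values, centred on each probe's median (100% of rows had a median of 0), with higher values meaning more signal. Its columns followed the centred scanner values at correlations of 0.987 to 0.998, its column medians were 0 except -0.0021 for KO 2 and 0.00793 for control 4, and its scaling stays unknown.

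The log2 signal of each spot was set relative to the 75th percentile of its array, without control spots and outlier spots, and spots of 1 probe were averaged. A probe was kept if 3 or more arrays of either group were well above background (26580 of 55681), and the brightest kept probe of a gene was used, leaving 22348 features, 13703 of them named genes. Of the probes, 28026 matched 1 symbol through RefSeq accessions and 27655 none. The comparison used limma 3.58.1 (R 4.3.3), with p-values adjusted over all features by the Benjamini-Hochberg method. The test was checked on simulated data whose features were drawn independently. Deviations that many genes of a heart share were therefore not part of that check.

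The 10 genes, the 15 other lists and the rule for named genes (up to 3 members per list with the lowest p) were chosen with earlier results of these data known. Aspn was named outside that rule after its values were seen, as the remaining neighbour of Ogn. So were S100a8, S100a9 and Csf3r, the neutrophil markers measured on every array. Chad, Fmod, Tnc, Cthrc1, Cxcr2, Mmp8, Crispld1, Pi15 and Krt8 were also named after their values were seen, for their detection. The labels name separate hearts, taken as separate animals, and 4 against 3 arrays limit the precision of every value. Alternatives were normexp correction (offset 50, on the median spot signal, since the files hold no mean), other scalings, filters, the deposited table, mean over probes, variance models, array weights, blocks for replicate number or slide row, and each heart left out. Replicate numbers did not pair the hearts: deviations of same-numbered hearts correlated at 0.18, -0.22 and -0.20.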

Additional observations from a re-analysis of the deposited data

Results flagged for a closer look

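Among the 53 genes checked, the level of 1 control heart stood apart from the other 3 in 2 genes, Has1 and Mmp9. For Has1 control 4 read -4.88, below the range of the other control hearts from -2.57 to -2.15. For the neutrophil gene Mmp9 control 2 read -5.05, above the others, which lay from -6.08 to -5.92, and none of the 4 control arrays was well above background there. Chance alone flags about 1 in 20 groups by this measure, so 2 of 53 is not more than that. None of the 10 fibroblast identity genes was flagged.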

How the results depend on the processing

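All 19 alternatives kept the direction of 9 of the 10 genes. The exception was Ddr2, not called in any, which was at 0.0289 with the mean over probes and 0.00132 with array weights, and ranged from -0.198 to 0.0207 with 1 heart left out. The number of the 10 called lower, 5, was 3 with median centring and 0 with no filter on dim probes, with the replicate block and with the unmoderated test. The number called higher, 1, was 0 in the same last 3 settings and 2 with the slide row as a block. At an unadjusted limma p under 0.05, 6 genes were lower and 1 higher with no filter, and 5 lower and 1 higher with the replicate block and with the unmoderated test. Leaving out 1 heart gave 0 to 6 lower and 0 to 1 higher, with 4 to 7 lower at an unadjusted p under 0.05. The calls over all features, 5667, were 1461 with no filter, 11985 with array weights, 39 with the replicate block and 95 with the unmoderated test, and ranged from 69 (without KO replicate 1) to 6973 (without control replicate 2). The replicate block, whose numbers did not pair the hearts, left Clec3b at -2.24 (adjusted p = 0.0557) and Pdgfra at 0.65 (0.0823). Dcn did not pass with quantile normalization (adjusted p = 0.0873), median centring (0.0655) or in the authors' value table (0.081), and Dpt not with median centring (0.0746). Array weights gave KO 1 a weight of 6.47 and the other KO hearts 0.669 and 0.455, and called 53.6% of all features. Of 26 other fibroblast genes the number lower, 5, was 3 with median centring, 12 with array weights and 0 with no filter, the replicate block or the unmoderated test. Of 20 activated fibroblast genes the number higher, 2, was 11 with array weights and 0 in these last 3 settings. Median centring moved the median of all features by 0.09, and no filter by -0.10. Of 30 calls among the named genes outside the 10, 2 still passed without KO replicate 1, 10 without KO replicate 2, and 17 to 29 without any other heart. The cause of these changes was not tested.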
